A study of Drosophila melanogaster with 2 samples.

Results

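These results describe the strong CG6683-GFP peaks that stood in the upper part of 1 replicate's list and not of the other's. Chromatin came from whole, mixed-sex Drosophila melanogaster embryos aged 6 to 24 hours of the transgenic strain CG6683-GFP, which carries an inserted CG6683 gene with GFP fused to the C-terminus of the protein. DNA bound by the fusion protein was recovered with an anti-GFP antibody and sequenced (ChIP-seq), with a control alignment behind each list. The only group held 2 biological replicates, numbered 2 and 3, and no other genotype, treatment or stage was given. Each replicate had a list of 30000 candidate peaks, with the authors' signal value and the summit of each peak, and 59979 candidates of both lists lay on the nuclear arms. The members were chosen by measured values, namely signal and the distance between summits. From each list the same number of peaks of highest signal was taken, 5928 in both lists together, and a peak was kept when no upper summit of the other list lay within 200 bp of its own. That left 1021 peaks of the list labelled replicate 2 and 1005 of the list labelled replicate 3, together 2026 peaks. The remaining 1943 and 1959 peaks were shared. Replicate numbers here are those on the lists for the dm6 genome build, and they are crossed against those on the dm3 lists, so which library carries which number is uncertain. The lists give no read counts, so the depth is unknown, and each one-sided group comes from 1 library. A difference between the groups is therefore a difference between 2 libraries of the same genotype, and p-values compare sets of peaks, not embryos.

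In ChIP-seq a peak marks a stretch of chromatin whose fragments were recovered more often with the antibody than in the control, and its summit is the best estimate of where the protein sat. In Drosophila such peaks often gather at promoters, the stretches around transcription start sites where the general transcription machinery assembles. Promoters there differ in their elements. GAGA repeats are bound by GAGA factor, the product of Trl. The DNA replication-related element (DRE, TATCGATA) is bound by Dref and marks many housekeeping genes, and its core CGATA is also the site of the insulator protein BEAF-32. A and T runs are common in nucleosome-poor DNA just upstream of starts.

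The sequences around 8 summits show how the groups differ in composition. Each is the 201 bp centred on a summit, on the plus strand of the Release 6 genome (dm6), and none touches an annotated UTR. Capitals mark the words GAGAG, the AT word AAATAT and the DRE, on either strand. The strongest of each kind was taken among the windows eligible for printing, and peaks of higher signal are described further on. The first 4 are of replicate 2 only. They are a promoter peak at tara (chr3R:16242588-16242788) and a peak outside promoters, nearest to Rh5 (chr2L:12012258-12012458). A start of pyd (chr3R:8846311-8846511) and a peak with a DRE, at ftz-f1 (chr3L:18801483-18801683), follow. The next 3 are of replicate 3 only. These are the strongest peak outside promoters, in an intron of tara (chr3R:16236040-16236240), the strongest promoter peak, at Bacc (chr2L:2751886-2752086), and another start of pyd (chr3R:8867694-8867894). The last is a shared promoter peak, at Gapdh2 (chrX:15867886-15868086).
tara promoter, replicate 2 only: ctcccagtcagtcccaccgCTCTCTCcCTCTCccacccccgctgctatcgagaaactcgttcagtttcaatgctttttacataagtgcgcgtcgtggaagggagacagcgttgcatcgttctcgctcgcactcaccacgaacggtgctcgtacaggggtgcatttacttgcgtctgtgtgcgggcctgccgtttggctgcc
Rh5 intergenic, replicate 2 only: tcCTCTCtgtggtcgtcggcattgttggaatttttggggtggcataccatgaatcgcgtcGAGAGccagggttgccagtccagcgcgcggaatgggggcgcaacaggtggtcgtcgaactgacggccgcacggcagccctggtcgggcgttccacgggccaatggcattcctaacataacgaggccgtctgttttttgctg
pyd downstream start, replicate 2 only: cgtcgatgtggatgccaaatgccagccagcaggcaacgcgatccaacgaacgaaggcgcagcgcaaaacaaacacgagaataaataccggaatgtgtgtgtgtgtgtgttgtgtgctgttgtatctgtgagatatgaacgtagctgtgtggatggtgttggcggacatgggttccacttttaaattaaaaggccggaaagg
ftz-f1 promoter, replicate 2 only: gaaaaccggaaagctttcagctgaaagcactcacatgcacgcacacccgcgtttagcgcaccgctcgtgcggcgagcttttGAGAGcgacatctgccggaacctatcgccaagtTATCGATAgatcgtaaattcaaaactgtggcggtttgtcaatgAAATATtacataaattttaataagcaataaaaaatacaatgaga
tara intron, replicate 3 only: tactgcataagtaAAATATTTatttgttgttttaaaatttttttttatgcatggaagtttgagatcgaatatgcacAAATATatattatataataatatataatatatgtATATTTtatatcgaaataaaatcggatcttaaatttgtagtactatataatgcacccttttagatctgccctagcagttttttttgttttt
Bacc promoter, replicate 3 only: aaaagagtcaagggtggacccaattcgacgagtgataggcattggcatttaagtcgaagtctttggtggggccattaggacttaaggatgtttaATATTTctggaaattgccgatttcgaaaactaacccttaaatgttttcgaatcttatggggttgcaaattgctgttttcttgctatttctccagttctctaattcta
pyd upstream start, replicate 3 only: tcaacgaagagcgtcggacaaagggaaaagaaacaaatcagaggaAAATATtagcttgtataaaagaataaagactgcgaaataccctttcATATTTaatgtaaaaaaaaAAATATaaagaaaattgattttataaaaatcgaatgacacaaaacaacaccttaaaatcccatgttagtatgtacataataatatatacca
Gapdh2 promoter, shared: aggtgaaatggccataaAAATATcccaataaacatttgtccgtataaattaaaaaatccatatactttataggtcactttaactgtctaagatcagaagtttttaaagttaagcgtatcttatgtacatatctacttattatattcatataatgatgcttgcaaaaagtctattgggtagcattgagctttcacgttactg

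The tara promoter window of replicate 2 only was 58.2% G and C and held 3 matches to GAGAG, overlapping ones included. The tara intron window of replicate 3 only was 21.4% G and C and held 4 matches to AAATAT. The windows at the pyd starts differed in the same way, with 49.3% G and C in replicate 2 only and 26.9% in replicate 3 only. The shared Gapdh2 window had 29.4%. tara encodes a transcriptional co-regulator of the trithorax group, pyd a junction scaffold protein, ftz-f1 a nuclear receptor and Gapdh2 a glycolytic enzyme.

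The values that chose the members are given as a description, with no test. Signal in replicate 2 only ran from 83.4 to 297.2 with a median of 99.4, against a median of 137.5 in the shared peaks of that list. In replicate 3 only it ran from 105.3 to 472.4 with a median of 127.4, against 195.2 in the shared peaks. The lists are on scales of their own, so signals are not compared between them. One-sided peaks were few at the head of each list and frequent near its end. They made up 1.40% of ranks 1 to 500 and 66.2% from rank 2501 to the limit in the list of replicate 2, and 3.40% and 66.8% in that of replicate 3. At the rank limit the signal was 83.41 just inside and 83.38 just outside for replicate 2, and 105.3 on either side in the other. At the distance limit the closest one-sided summits lay 204 and 201 bp from an upper summit of the other list, and the farthest shared ones 199 bp. Between 200 and 250 bp lay 28 summits of replicate 2 only and 39 of replicate 3 only.

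Most one-sided peaks had a candidate below the rank limit in the other list. The rule fixed that any candidate within 200 bp there was below the limit, and no such share over all candidates was taken. Within 200 bp, 74.0% of replicate 2 only (756 of 1021, exact 95% interval 71.2 to 76.7%) and 79.8% of replicate 3 only (802 of 1005, 77.2 to 82.2%) had a candidate of lower rank there. Its median rank was 6124 for replicate 2 only and 5218 for replicate 3 only, and for 124 and 123 peaks that rank was 3500 or better. No candidate of any rank lay within 200 bp of 265 peaks of replicate 2 only and 203 of replicate 3 only. The authors' optimal list, which they made by IDR (irreproducible discovery rate) thresholding of pooled replicates, had a summit within 200 bp of 35.1% of replicate 2 only (358 peaks) and 62.9% of replicate 3 only (632 peaks). Of the shared peaks 99.2% and 99.1% did.

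**Figure D1:**
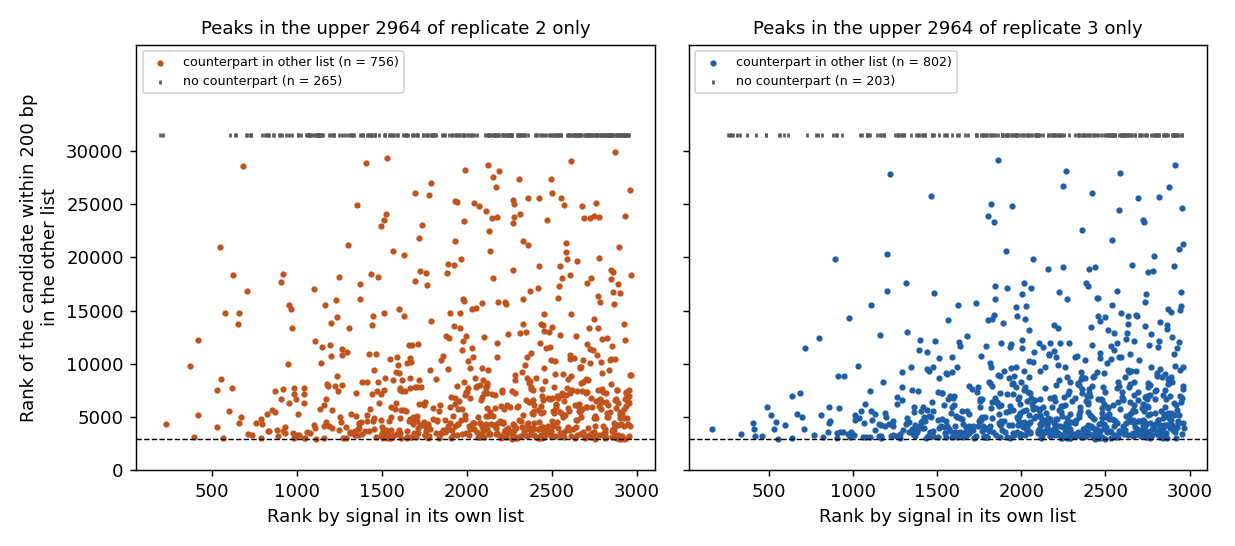
Rank of each one-sided peak in its own list (x axis) and of its nearest candidate within 200 bp in the other list (y axis), with peaks of replicate 2 only on the left and of replicate 3 only on the right. Grey ticks are the 265 and 203 peaks with no such candidate, the dashed line is the rank limit, and in both panels the points are densest just above that line.

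The strongest peaks of replicate 2 only were mostly at promoters and rich in G and C. Of the 10 of highest signal (186.8 to 297.2), 6 were promoter peaks, with a protein-coding start within 500 bp, 2 lay in introns, 1 in a 5' UTR and 1 between genes, and all 10 summits had more G and C than their own flanks. The highest, with a signal of 297.2 at rank 195, covered 2R 24814568 to 24814832, 118 bp upstream of Dll (FBgn0000157), the homeodomain gene of limb development. It had 67.2% G and C against 44.0% in its flanks, and no candidate of the other list within 200 bp. The second, at Drat (2R 7529343 to 7529570, signal 286.0), also had none, but an upper summit of the other list lay 210 bp away. HmgZ, which encodes a high-mobility-group protein, followed with 272.8 at -242 bp from its start, where a negative offset is upstream, and the other list had a candidate at rank 4332.

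The next were the tara promoter (signal 223.0, rank 9828 in the other list) and the 5' UTR of Pdp1, a bZIP transcription factor of the circadian clock (217.8, rank 3124). An intergenic summit nearest to the rhodopsin gene Rh5 (212.5, rank 12239) and an intronic one nearest to elav, the neuronal RNA-binding protein gene (211.7, rank 5201), came after. The list closed with the promoter of the tyrosine kinase gene Abl (191.2, rank 7523), an intron of the lysosomal transporter gene spin (191.1, rank 4063) and the promoter of the kinase regulator gene Mob2 (186.8, rank 21021). Of the 10, 8 had a summit of the optimal list within 200 bp. The promoter of Socs36E, a feedback inhibitor of JAK/STAT signalling, had the highest signal after Dll and Drat (178.1, rank 605) among peaks with no candidate in the other list.

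The strongest peaks of replicate 3 only were poor in G and C. Of the 10 of highest signal (316.2 to 472.4), 5 were at promoters, 2 in introns, 2 between genes and 1 in a non-coding gene, and 1 of the 10 summits had more G and C than its flanks. The highest lay in the tara intron at 3R 16235881 to 16236241, with a signal of 472.4 at rank 165, 21.4% G and C against 48.3% in its flanks, and a candidate at rank 3885 in the other list. In 7 of the 10 no candidate of the other list lay within 200 bp, yet in 3 of these 7 an upper summit of the other list lay within 300 bp. These 3 were in an intron of the inhibitory Smad gene Dad with Ns1 as the nearest start (396.4, other summit 201 bp away), at the forkhead gene foxo (352.5, 227 bp) and near the Notch target E(spl)m3-HLH (345.2, 252 bp).

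The other 4 without a candidate were at Bacc inside the glycolytic gene Pgk (signal 388.0, offset -459 bp), at Trp1, an endoplasmic reticulum translocation gene (382.6, -133 bp), between genes near CG34342 (373.6, -1303 bp) and at CG32115 (328.3, -141 bp). Peaks inside lncRNA:CR43626 with CG43389 as the nearest start (344.0, rank 3394 in the other list) and at cnn, which encodes a centrosome protein (316.2, rank 4422), completed the 10. Of these, 8 were near a summit of the optimal list.

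Where the peaks lay was not used by the rule and was tested. Promoters held 62.9% of replicate 2 only (642 of 1021) and 43.1% of replicate 3 only (433 of 1005), a difference of 19.8 percentage points. Its odds ratio was 2.24 (1.87 to 2.69, Fisher's exact test, two-sided, adjusted p = 8.87e-18 over 21 tests of 7 classes and 3 contrasts). The shared peaks stood between them at 50.5% and 50.4%. Replicate 2 only was above its shared peaks by 12.4 points (exact adjusted p = 7.63e-10) and replicate 3 only below its own by 7.30 points (adjusted p = 0.000696). Introns ran the other way, with 23.7% of replicate 2 only (242 peaks) and 40.5% of replicate 3 only (407 peaks; odds ratio 0.456, 0.375 to 0.555, exact adjusted p = 4.83e-15). Shared peaks had 35% and 35.2% in introns (exact adjusted p = 1.06e-09 and 0.0194 against replicate 2 only and replicate 3 only). The promoter share of shared peaks of replicate 2 fell from 60.0% at ranks 1 to 500 to 41.4% from rank 2501 on. For those of replicate 3 the values were 62.1% and 46.1%. From rank 2501 on replicate 2 only had 57.3% and replicate 3 only 40.65%. Replicate 2 only was below its shared peaks at ranks 1 to 500 alone (57.1%). Replicate 3 only was above its own at ranks 1501 to 2000 alone (49.5% against 40.9%). How far rank carries these differences was not tested.

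With promoters taken as 500 bp, the smaller classes did not pass the adjusted threshold between the one-sided groups. Intergenic sequence held 9.79% of replicate 2 only and 12.1% of replicate 3 only (exact adjusted p = 0.166). Non-coding genes held 1.27% and 2.69% (exact adjusted p = 0.0752), 5' UTRs 1.18% and 0.299% (adjusted p = 0.0807) and 3' UTRs 0.588% and 1.29% (adjusted p = 0.167). Coding exons held 6 peaks of replicate 2 only and 0 of 1005 of replicate 3 only (exact adjusted p = 0.0807). With promoters taken as 200 bp all 5 of these classes passed. The intergenic difference was then -7.36 points (exact adjusted p = 2.14e-05), against -2.35 points with 500 bp, and the non-coding (-1.52), 3' UTR (-1.21), coding exon (0.979) and 5' UTR (1.46 points) differences kept their directions (exact adjusted p between 0.00503 and 0.0408). When the upper 1000 peaks of each list were taken, the promoter difference was 3.53 points (exact adjusted p = 0.938) and the intron difference -4.29 points (adjusted p = 0.920), so neither call held there. For the 265 and 203 peaks with no candidate in the other list the promoter difference was 19.0 points (exact adjusted p = 0.000314) and the intron difference -10.4 points (adjusted p = 0.0581).

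**Figure D2:**
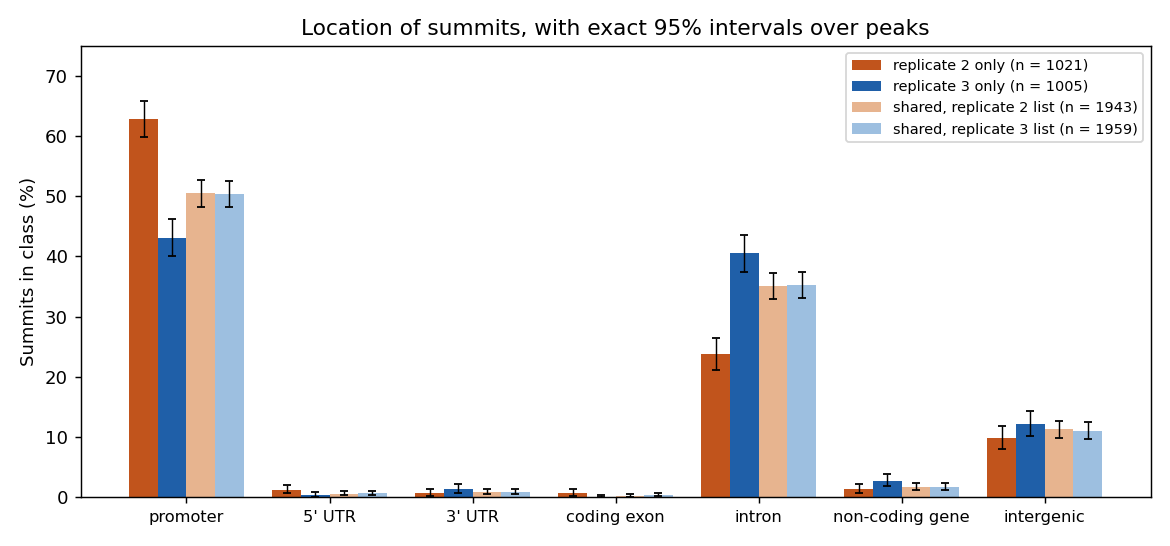
Share of summits (y axis, percent) in each of 7 location classes (x axis) for the one-sided groups and the shared peaks of each list, with bars from 0 and exact 95% intervals over peaks. At promoters the bars stand at 62.9%, 43.1%, 50.5% and 50.4% in the order of the legend, and in introns the order of the one-sided groups is turned round.

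Promoter summits of replicate 2 only sat closer to the start. Their median offset was -31.5 bp (quartiles -107 and 40 bp, n = 642), against -150.0 bp (-260.0 and -66 bp, n = 433) in replicate 3 only and -126 and -130.0 bp in the shared peaks. Within 50 bp of the start lay 34.6% of promoter summits of replicate 2 only and 10.2% of replicate 3 only (odds ratio 4.67, 3.26 to 6.80; Fisher's exact test, adjusted p = 2.80e-20 over 9 tests). The shared promoter summits had 15.4% (exact adjusted p = 2.57e-18 against replicate 2 only) and 14.8% (adjusted p = 0.0229 against replicate 3 only). Of the promoter summits not exactly at a start, 62.7% were upstream in replicate 2 only and 82.7% in replicate 3 only (adjusted p = 1.71e-12). For replicate 3 only against its shared peaks, at 85.5%, the difference of -2.82 points did not pass (exact adjusted p = 0.197). Starts on both strands in divergent order lay within 500 bp of 22.7% of promoter summits of replicate 2 only and 37.4% of replicate 3 only (exact adjusted p = 4.17e-07). The shared promoter summits had 33.4% and 33.9% (exact adjusted p = 5.18e-06 and 0.227 against replicate 2 only and replicate 3 only).

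**Figure D3:**
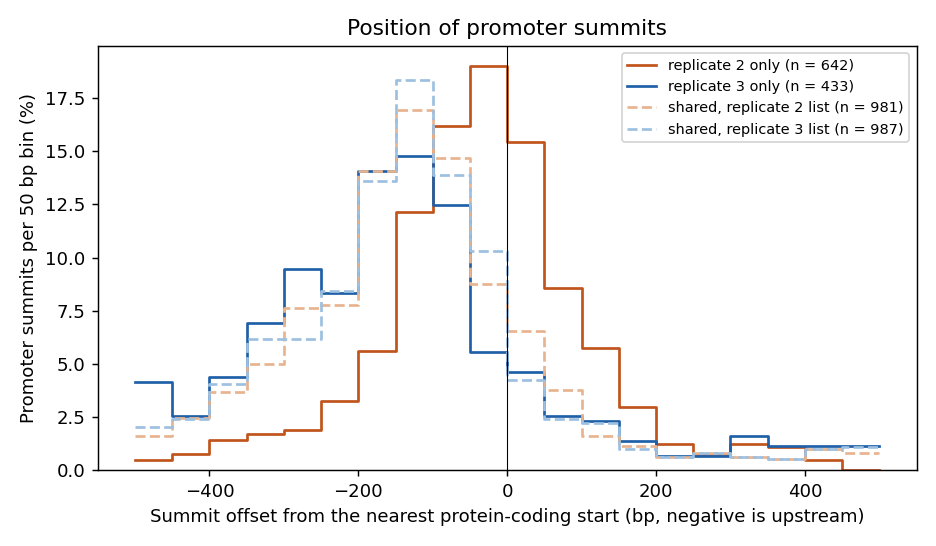
Offset of promoter summits from the nearest protein-coding start (x axis, bp, negative is upstream) as the percent of promoter summits per 50 bp bin (y axis). The curve of replicate 2 only is highest next to the start, where its median offset is -31.5 bp, and the other 3 curves are highest further upstream, with medians of -126 to -150.0 bp.

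The spread of the one-sided peaks over the chromosome arms did not differ past the threshold. The share on 2L was 17.0% in replicate 2 only and 16.4% in replicate 3 only, on 2R 21.2% and 19.2%, on 3L 20.1% and 21.9%, on 3R 26.7% and 26.3%, on 4 0.686% and 0.299% and on X 14.3% and 15.9%. None of the 6 differences passed (exact adjusted p between 0.514 and 0.840). Among peaks with no candidate in the other list the 2R share was 10.4 points higher in replicate 2 only (exact adjusted p = 0.0203).

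Base composition also differed between the groups, and is given without a test. The median G and C content within 100 bp of the summit was 44.8% in replicate 2 only (quartiles 38.3 and 51.2%) and 32.8% in replicate 3 only (28.4 and 37.3%). The shared peaks had 34.8% and 34.3%. In flanks centred 500 bp away the order was turned, with 41.5% in replicate 2 only, 44.0% in replicate 3 only and 43.3% in both shared sets. The summit was richer in G and C than its flanks in 58.3% of replicate 2 only, in 12.4% of replicate 3 only and in 21.7% and 20.2% of the shared peaks. The mean at the summit itself was 43.6% in replicate 2 only and 30.7% in replicate 3 only, in windows of 51 bp. Shared peaks had 32.5% and 32.1% there, so that a deep trough in G and C marked every group but replicate 2 only. In replicate 2 only the dip was slight, with 44.35% and 44.37% at 50 bp on either side. Soft-masked sequence, the repeats and simple runs marked in lower case in the genome file, made up a median of 13.4% of the windows of replicate 2 only and 23.9% of those of replicate 3 only.

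**Figure D4:**
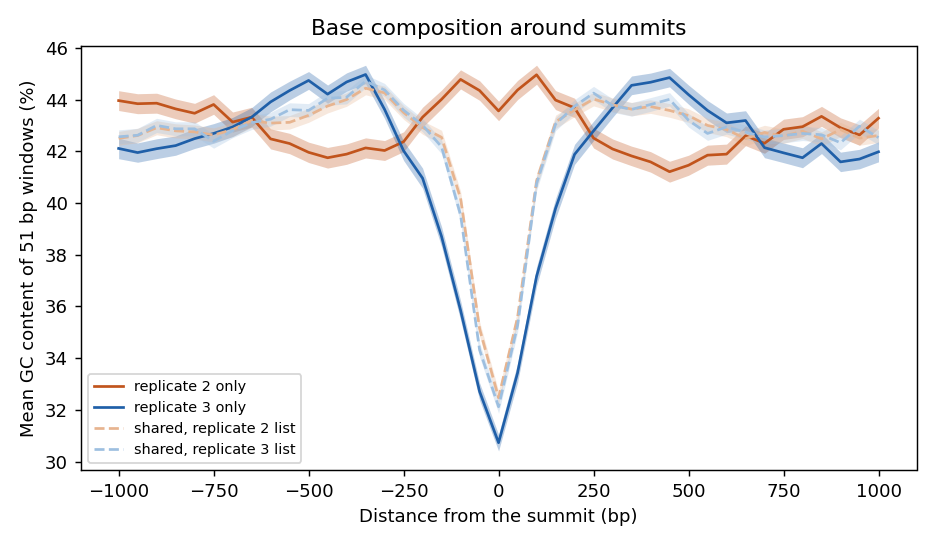
Mean G and C content in 51 bp windows (y axis, percent) by distance from the summit (x axis, bp), with bands of 1 standard error over peaks. The curves of replicate 3 only and of both shared sets fall to between 30.7% and 32.5% at the summit, while that of replicate 2 only dips slightly, to 43.6%.

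The difference held inside and outside promoters. Promoter summits had a median of 45.8% G and C in replicate 2 only and 31.8% in replicate 3 only, and other summits 42.3% and 33.3%. It was also there at each level of signal. In replicate 2 only the median fell from 55.2% at ranks 1 to 500 (7 peaks) and 49.3% at ranks 501 to 1000 (67 peaks) to 42.3% from rank 2501 on (307 peaks), while the shared peaks of that list stayed between 34.3 and 35.3% in all 6 bins. Replicate 3 only ran from 30.9 to 33.8% over its bins. The next candidates of each list, up to rank 6000, had 40.3% for replicate 2 and 35.8% for replicate 3. Peaks of replicate 2 only with no candidate in the other list had 48.8%, and those with one 42.8%. In replicate 3 only both kinds had 32.8%.

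Location and composition moved together in replicate 2 only. Its promoter share was 48% among 50 summits under 30% G and C and 70.3% among 296 summits of 50% or more. In replicate 3 only the shares were 49.8% of 333 summits under 30%, 41.2% of 306 summits from 30 to 35% and 34.3% of 102 summits from 40 to 45%. Its 13 summits of 50% or more had 53.85% at promoters, with a wide exact 95% interval of 25.1 to 80.8%. Between 30 and 35% replicate 2 only had 53.0% of 115 summits at promoters (exact 95% interval 43.5 to 62.4%) and replicate 3 only 41.2% (35.6 to 46.9%). Between 40 and 45% the shares were 65.3% of 190 summits (58.0 to 72.0%) and 34.3% (25.2 to 44.4%). How far composition carries the difference in location was not tested.

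Short words in the summit windows followed the composition. All words of 6 bases, a word and its reverse complement counting as 1, and 30 motifs were compared between the one-sided groups, each counted once per 201 bp window on either strand, by Fisher's exact test (two-sided) with Benjamini-Hochberg adjustment over the 2110. Of these, 711 (33.7%) were more frequent in replicate 2 only and 379 (18%) in replicate 3 only at an exact adjusted p under 0.05. Since 14 of the 30 motifs are also a word of 6 bases, some sequences enter these and later counts both as word and as motif. All 36 words with no G or C and 191 of 192 words with 1 were more frequent in replicate 3 only. Of the words with 6 such bases, 30 of 36 were more frequent in replicate 2 only, as were 161 of 192 with 5. When windows were compared within bins of 5 percentage points of G and C content (Cochran-Mantel-Haenszel test), 9 words and motifs (0.427%) were more frequent in replicate 2 only and 6 (0.284%) in replicate 3 only. A bin with windows of only 1 group adds nothing to this test. The content reached 67.2% in replicate 2 only and 58.2% in replicate 3 only, so the richest windows of replicate 2 only did not count. For tests within bins, n = 2026 is the number of windows sorted into bins. The number that counted was lower and is not given.

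**Figure D5:**
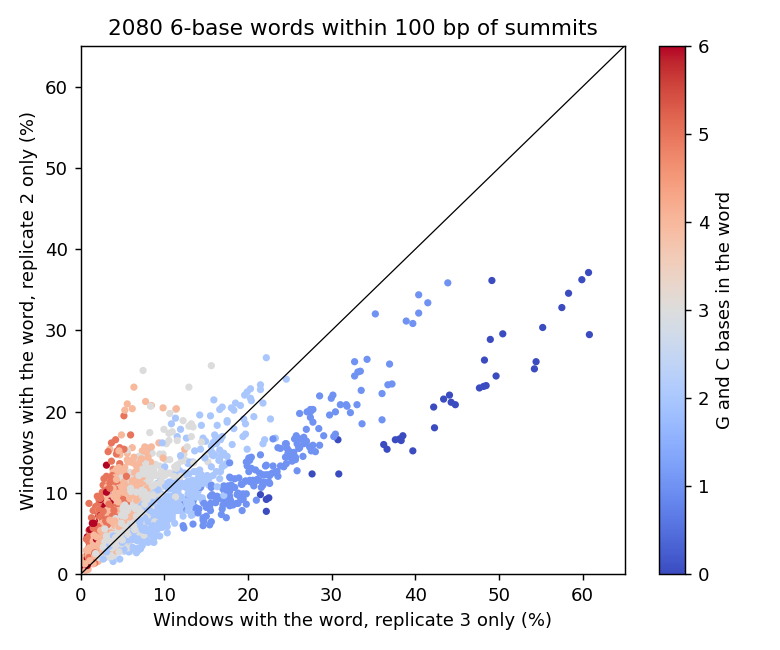
Percent of summit windows holding each word of 6 bases in replicate 3 only (x axis) and replicate 2 only (y axis), coloured by the number of G and C bases in the word, with the line of equal shares. Words with no G or C lie below the line, AAATAT at 60.8% against 29.5%, and words rich in G and C lie above it.

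GAGA repeats led in replicate 2 only before composition was taken into account. AGAGAG was in 25.1% of its windows and 7.46% of those of replicate 3 only (odds ratio 4.15, exact adjusted p = 9.68e-26), with 12.4% and 12.1% in the shared peaks. The GAGA element GAGAG, which overlaps it, was in 39.5% and 18.4% (odds ratio 2.89, exact adjusted p = 5.67e-24), with 25.4% and 24.5% in the shared peaks. Within bins of G and C content neither passed. The odds ratios were 1.74 for AGAGAG (adjusted p = 0.151, n = 2026 windows sorted into bins) and 1.25 for GAGAG (adjusted p = 0.596). The other leading words were AGAGCG (235 windows of replicate 2 only and 64 of replicate 3 only), then GAGAGC (214 and 56), then GAGCGA (206 and 53), then CGCTGC (199 and 52) and GAGCGC (165 and 37), and within bins none of these 5 passed (n = 2026 windows, adjusted p between 0.281 and 0.503).

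The DRE and its core stayed more frequent in replicate 2 only within bins of G and C content. TATCGATA was in 6.07% of windows of replicate 2 only (62 of 1021) and 2.09% of replicate 3 only (21 of 1005), with 2.68% and 2.60% in the shared peaks. Its odds ratio was 3.03 without the bins (Fisher's exact test, adjusted p = 2.69e-05) and 3.53 within them (adjusted p = 0.00176). CGATAG was in 15.3% and 5.57% (3.16 within bins, n = 2026 windows, adjusted p = 2.08e-06), TATCGA in 19.2% and 11.3% (2.47, 2.08e-06) and ATCGAT in 15.5% and 8.06% (2.60, 1.85e-05). The BEAF-32 site CGATA was in 34.9% and 24.8% (1.76 within bins, n = 2026 windows, adjusted p = 0.00135). These words overlap each other, so they are not separate observations. GCGGGA, a word apart from these, was in 8.72% and 0.995% (3.92 within bins, n = 2026 windows, adjusted p = 0.0245). Without bins GCGGGA passed at promoter summits, outside promoters and for peaks with no candidate in the other list. It also passed with the upper 1000 peaks of each list (Fisher's exact test, adjusted p = 0.0307). CATCNCTA, known as motif 7 of Drosophila core promoters, was in 5.0% and 2.79% (2.92 within bins, n = 2026 windows, adjusted p = 0.0347). Its call was lost at promoter summits alone (exact adjusted p = 0.523), outside promoters (0.658) and for peaks with no candidate in the other list, and with the upper 1000 peaks of each list its log2 odds ratio was -0.29. Among the upper 1000 peaks of each list the log2 odds ratio of TATCGATA was -0.40 (Fisher's exact test, adjusted p = 0.861), so the direction was turned there. CGATAG, at a log2 odds ratio of 0.37, was not past the threshold there either (exact adjusted p = 0.794). Outside promoters CGATAG passed Fisher's exact test (log2 odds ratio 2.23, adjusted p = 0.00516), while CGATA (adjusted p = 0.629), the word TATCGA (0.784) and ATCGAT (0.670) did not. TATCGATA itself was there in 1 of 379 windows of replicate 2 only and 0 of 572 of replicate 3 only (exact adjusted p = 0.612). Among peaks with no candidate in the other list it was in 10 of 265 and 0 of 203 windows (exact adjusted p = 0.0287).

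AT words led in replicate 3 only. AAATAT was in 60.8% of its windows and 29.5% of those of replicate 2 only (odds ratio 0.270, exact adjusted p = 6.93e-43), while the shared peaks had 54.1% and 55.5%. TAAATA was in 54.2% and 25.3%, TTAAAA in 54.4% and 26.2% and TAATAA in 39.7% and 15.2% of replicate 3 only and replicate 2 only. None of these 4 passed within bins of G and C content (n = 2026 windows, adjusted p = 0.445, 0.211, 0.973 and 0.468). The TATA box TATAAA was in 44.3% of replicate 3 only and 21.2% of replicate 2 only, with an odds ratio of 0.980 within bins (n = 2026 windows, adjusted p = 0.978). The Forkhead consensus TGTTTA, in 33.6% and 18.5%, kept its call within bins (odds ratio 0.628, n = 2026 windows, adjusted p = 0.0245), as did CAAATA (36.0% and 19.0%, 0.623, 0.0245). With the upper 1000 peaks of each list and no bins, TGTTTA lost its call (exact adjusted p = 0.0615). CCCCGC was in 3.38% of replicate 3 only and 5.68% of replicate 2 only, and its odds ratio was 1.72 without bins and 0.393 within them, both past the threshold (n = 2026 windows, adjusted p = 0.0302 and 0.0245). A match is a stretch of letters and does not show that a factor was bound.

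Of 13945 protein-coding genes, 780 (5.59%) had a start within 500 bp of a summit of replicate 2 only and 579 (4.15%) of replicate 3 only, against 1249 (8.96%) and 1252 (8.98%) for the shared peaks. The genes of replicate 2 only were longer, with a median of 4728 bp, against 3368 bp for replicate 3 only, 3345 and 3337 bp for the shared peaks and 2166 bp over all protein-coding genes. Lists of related genes are described by counts, with these shares as background, and a gene can be in more than 1 set where it has several starts.

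The Polycomb and Trithorax group list and the developmental signalling list had higher counts in replicate 2 only than in replicate 3 only, a description with no test. The insulator protein list, given further on, went the other way, with 1 and 2 of 15 genes. Of 28 Polycomb and Trithorax group genes, which keep developmental genes silent or active, 7 (25%) had a start at a summit of replicate 2 only, 1 (3.57%) at one of replicate 3 only and 5 (17.9%) at a shared peak. The 7 were Psc, trx, Su(z)2, Trl, mor, kis and ash2. Psc, a subunit of Polycomb repressive complex 1, had a signal of 133.7 with 58.2% G and C, trx, a histone methyltransferase gene, 108.0 with 39.3%, and Trl 103.4 with 50.3%, and none of these 3 had a candidate in the other list within 200 bp. The 1 gene of replicate 3 only was Sfmbt, a subunit of the Pho repressive complex, with 134.3 and 25.9% G and C. Of 43 developmental signalling genes, 7 (16.3%) were in replicate 2 only, 1 (2.33%) in replicate 3 only and 7 in the shared peaks.

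The 7 signalling genes were N, which encodes the receptor Notch (signal 106.3), tkv, a BMP receptor gene (105.5), bnl, an FGF ligand gene (99.6), pnt, ptc, shn and pan. Ras85D (162.2) was the 1 in replicate 3 only. The ecdysone response list, genes of nuclear receptors and other targets of the moulting hormone, had 4 of 17 (23.5%) in replicate 2 only and 0 in replicate 3 only. These were Hr3 (132.9, 57.7% G and C), Eip75B (127.9, 57.7%), ftz-f1 (115.0, 43.3%) and Hr4 (89.2, 57.2%). Translation factor genes had 9 of 52 (17.3%) in replicate 2 only, led by eIF3a (138.2) and eEF2 (122.8), and 2 (3.85%) in replicate 3 only, eIF1 (248.2) and eIF3m (113.2). Cell cycle genes had 5 of 30 in replicate 2 only, led by Dp (123.6) and aurA (103.3), and 2 in replicate 3 only, Mcm2 (183.3) and E2f1 (136.9). Proteasome subunit genes had 4 of 32 in replicate 2 only, led by Rpt5 (127.8) and Rpn3 (115.9), and 1 in replicate 3 only, Rpn2 (123.8).

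Cytosolic ribosomal protein genes stood mostly at shared peaks. Of 85, 49 (57.6%) had a start at a shared peak, 4 (4.71%) at a summit of replicate 2 only and 7 (8.24%) at one of replicate 3 only. The strongest of replicate 3 only were RpL28 (signal 248.2, at the same summit as eIF1) and RpS12 (201.0), and of replicate 2 only RpS15Aa (95.9) and RpS3 (95.3). RpS14a and RpS14b, also in replicate 3 only, are near-identical neighbouring copies, so their peaks are uncertain. Mitochondrial ribosomal protein genes had 9 of 73 (12.3%) at shared peaks and 4 in each one-sided set, led by mRpS11 (113.7) in replicate 2 only and mRpS6 (200.1) in replicate 3 only, and oxidative phosphorylation genes 5 and 6 of 87, led by ATPsynC (147.6) and ND-42 (188.6). Aminoacyl-tRNA synthetase genes had 3 of 32 in each, led by ArgRS-m (107.8) and AsnRS (143.3). Insulator protein genes had 1 of 15 in replicate 2 only, mod(mdg4) (86.7), and 2 in replicate 3 only, BEAF-32 (132.0) and pzg (130.8). The heat shock list had 1 of 20, Hsc70-3 (92.7), and 0.

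Lists of genes of single tissues are given by counts, beside shares of 5.59% and 4.15% over all protein-coding genes. The segmentation and Hox list, 27 genes that pattern the embryo, had 0 in every set, and the germ line list 0 of 13 in both one-sided sets. Muscle and mesoderm genes had 1 of 28 in replicate 2 only, Mef2 (99.7), and 3 in replicate 3 only, led by Tm1 (140.3) and sls (133.5), which encode muscle structural proteins. Differentiated neuron genes had 2 of 26 in each, Syx1A (93.2) and Appl (84.8) in replicate 2 only and Tbh (145.2) and comt (117.9) in replicate 3 only. Trachea and epidermis genes had 2 of 24 in replicate 2 only, the polarity genes sdt (99.3) and crb (93.1), and 0 in replicate 3 only. Neuroblast genes had 1 of 25, brat (98.8), and 0, glial genes 1 of 15, pnt (90.4), and 0, and gut, fat body and hemocyte genes 1 of 21 in each, ush (129.9) and Hnf4 (131.6). Because whole embryos were used, the cells behind a peak are not known.

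Some genes had one-sided peaks of both kinds. A start lay at a summit of each group for 32 of 13945 genes (0.229%), beside 780 genes (5.59%) for replicate 2 only and 579 (4.15%) for replicate 3 only. Whether this overlap differs from that of unrelated sets of such sizes was not tested. The 32 genes came from 29 distinct pairs of summits a median of 536 bp apart. In 28 of these 29 pairs the summit of replicate 2 only was richer in G and C, with medians of 49.3% and 31.8%, as in the groups at large. At kay, which encodes the fly Fos protein, the summit of replicate 2 only had 55.2% and that of replicate 3 only, 579 bp away, 30.8%. At dlp, a glypican gene, the values were 49.3% and 21.4% at 242 bp. The exception was hts, with 35.3% in replicate 2 only and 38.3% in replicate 3 only.

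Some loci held several one-sided peaks by nearest start, and examples with high counts follow. Shared peaks were not counted by locus. Within 1000 bp, 6.46% of replicate 2 only and 13.0% of replicate 3 only had another summit of their own set. The shared peaks had 14.7% in the list of replicate 2 and 16.2% in that of replicate 3. atos, mtSSB and tara had 8 each, 3 of replicate 2 only and 5 of replicate 3 only, kay had 4 and 2, Eip75B 3 and 3, and px 0 and 5. At tara, on 3R, the 8 summits lay between 16222193 and 16242688. The 3 summits of replicate 2 only had signals of 118.7, 150.4 and 223.0 and a G and C content of 48.3, 52.7 and 58.2%. The 5 of replicate 3 only had signals of 294.0, 129.8, 144.4, 472.4 and 238.3 and a content of 39.3, 25.4, 37.3, 21.4 and 48.8%. The groups overlapped in content there, through the summit at 16236347 with 48.8%. That summit shared its counterpart in the other list, at rank 3885.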

How the data were processed

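Positions of peaks, summits and a signal value per peak were taken from the deposited lists of peaks and background that the authors made as input to IDR, 1 per replicate. How the signal was normalized is not given in the sources used here, nor is the aligner or the peak caller. Each list was derived from a replicate's alignment and a control, per the file headers. The age label was not interpretable, so the age comes from the source name, and sonicated fragments of 200 to 800 bp were stated. Replicate numbers are those of the dm6 lists. On arm 2L, 96.8% of the intervals of the dm6 list labelled replicate 2 were identical to intervals of the dm3 list labelled replicate 3, and 0 to those of the dm3 list labelled replicate 2, so the numbers are crossed between the builds.

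Gene models of Ensembl release 115 (BDGP6.54) were used for annotation, and sequence came from the Release 6 genome. No candidate lay beyond its arm's end. Summits within 500 bp of a protein-coding transcript's start were called promoter, and the others were classed, in this order, by 5' UTR, by 3' UTR, by exon of coding sequence, by intron and by non-coding gene, the rest being intergenic. Fisher's exact test (two-sided) was used for shares and a Cochran-Mantel-Haenszel test for words within bins of G and C content, with Benjamini-Hochberg adjustment within each family and a threshold of 0.05. Intervals cover variation across peaks only, and neighbouring peaks are not independent. Named peaks were the 10 of highest signal per group, the 5 at promoters, the 3 without a candidate in the other list, and up to 2 members of each gene list, the other members of lists with 7 or fewer being named after their values were seen. Named words were taken from those of lowest adjusted p in each direction in at least 5% of either group, not all of which are named. Some words and motifs were named outside that rule, CATCNCTA (4.995%) and TATAAA among them. Printed sequences were chosen by signal among windows off arm 2R that touch no UTR. Members, lists, motifs and tests were chosen with earlier results of these data known. The calculations were tested on simulated data. The tools were SciPy 1.17.1, NumPy 2.4.6 and pandas 2.3.3 under Python 3.11.15, with matplotlib 3.10.9 for the figures. The alternatives were other distances, numbers of peaks, promoter and sequence windows, bins of G and C content, promoters apart, peaks with no candidate in the other list, and the dm3 lists for counts.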

Additional observations from a re-analysis of the deposited data

How the results depend on the processing

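With the upper 1000 peaks of each list, 296 and 291 were one-sided in the lists labelled replicate 2 and 3, and with the upper 5000, 1903 and 1890. Other rules for shared peaks (100 bp, 500 bp, overlap of intervals) and the dm3 lists gave 918 to 1153. The promoter difference lost its call with the upper 1000 (3.53 points) and the intron difference there (-4.29 points) and for peaks with no candidate in the other list (-10.4 points). Under the other promoter windows, the 500 bp distance and the upper 5000 both kept direction and call, with promoter differences of 16.8 to 29.0 points. The median G and C difference of 11.9 points between the groups ranged from 6.99 with windows of 250 bp each side to 15.9 for peaks with no candidate in the other list. Words and motifs more frequent in replicate 2 only and replicate 3 only numbered 9 and 6 within bins of G and C content, 281 and 186 outside promoters, 288 and 250 for peaks with no candidate in the other list and 104 and 80 with the upper 1000. The last 3 settings held fewer peaks, and the cause of these changes was not tested.

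Of the single classes, arms and words, these turned direction. With the upper 1000, the 3' UTR (0.676) and non-coding (0.658 points) differences turned, and so did the log2 odds ratios of AATCGA (-0.37), ATCGAT (-0.34), CGATAA (-0.40), TATCGA (-0.46), TATCGATA (-0.40), CGATA (-0.14) and CATCNCTA (-0.29). For peaks with no candidate in the other list, the arms 2L (-8.00), 3R (-3.90), 4 (-0.608) and X (4.60 points) and AATCGA (-0.10) turned. Within bins, CCCCGC (-1.35), the CA repeat (-0.11), the Cad consensus (0.055) and the Sp1-like GC box (-1.10) turned. Another 64 lost their call, and 166 were counted as unchanged, some of which had no test or no call to begin with. The 8 that gained one were the 5 smaller classes with a promoter window of 200 bp, the 5' UTR with a distance of 500 bp, the 3' UTR with the upper 5000 and arm 2R for peaks with no candidate in the other list. For 3 motifs no odds ratio was obtained outside promoters or for peaks with no candidate, since replicate 3 only held 0 matches.

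No paired analysis was possible because there is 1 group, and leaving out a replicate leaves no one-sided group. Depth is unknown and limits what the absence of a peak shows.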
